A study of Mus musculus with 4 samples.

Results

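The cell cycle genes described here are 43 genes, chosen by symbol from the 32285 genes measured in each library. They comprise 15 genes of DNA replication (S members: cyclins Ccne1 and Ccne2, Mcm2 to Mcm7, Pcna, Pclaf, Rrm1, Rrm2, Tyms, Tk1 and Hist1h2ap), 25 genes of G2 and mitosis (G2/M members, among them Mki67, Top2a, Ccnb1, Cdk1, Ube2c and Tpx2) and 3 genes assigned to neither phase (Stmn1, Hmgb2 and H2afx). All 43 symbols were found in every library and all 43 passed the filter on low counts in each of the 5 cell classes compared. The study profiled single CD45+ (leukocyte) cells sorted from the spinal cord of C57BL/6 mice in which EAE (experimental autoimmune encephalomyelitis), a mouse model of multiple sclerosis, had been induced. Both groups carried EAE and received an agent into the cranium on day 9 after immunisation, Ctrl MO in one group and Reg1-MOs in the other, and cells were taken on day 16. The labels spell out neither MO, read here as morpholino, nor Reg1, read as Regnase-1 (Zc3h12a). Each group had 2 libraries, Ctrl 1 and Ctrl 2 against Reg1-MO 1 and Reg1-MO 2. The labels do not say how many animals went into a library or whether the libraries came from separate animals, so p-values measure only the spread between these libraries. The sources used here give neither age nor sex of the mice.

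A dividing cell copies its DNA in S phase and separates the copies in mitosis, and different genes are switched on for each step. In late G1, cyclin E helps E2F factors to switch on the S genes, which load the MCM helicase onto DNA (Mcm2 to Mcm7), clamp the polymerase (Pcna) and make nucleotides (Rrm1, Rrm2, Tyms, Tk1). The DREAM complex represses the genes of mitosis at CHR elements in resting and G1 cells, and complexes of B-Myb and MuvB with FOXM1 later activate them, often with NF-Y at CCAAT boxes. They include genes of chromosome condensation (Top2a), the kinetochore (Cenpa, Cenpe, Cenpf, Knl1), the spindle (Tpx2, Kif11, Aurka), the checkpoint (Bub1, Bub1b) and cytokinesis (Racgap1, Cit, Aurkb, Birc5). In an inflamed spinal cord, T cells, regulatory T cells marked by Foxp3, microglia and immature myeloid cells can all divide.

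The start regions of 6 members are shown because the G2/M and S members had different median changes in the Foxp3-expressing cells described further on. They are the 3 G2/M members with the smallest p-values in those cells and the 3 S members with the highest levels there, among the 35 of 43 members matched by symbol in the RefSeq promoter table (GRCm38.p6). Stmn1, Ccna2, Mcm4, Ccne2, Tpx2, Hist1h2ap, Aurkb and H2afx had no entry. Each line gives the 150 bases that end just before the RefSeq start, 5′ to 3′ on the gene's strand. Capitals mark CCAAT or its reverse ATTGG, the CHR letters TTTGAA or TTCGAA and their reverse TTCAAA, and the E2F letters TTTCCCGC, TTTGGCGC or TTTCGCGC and their reverses.
Ube2c (chr2:164769779-164769928, plus strand): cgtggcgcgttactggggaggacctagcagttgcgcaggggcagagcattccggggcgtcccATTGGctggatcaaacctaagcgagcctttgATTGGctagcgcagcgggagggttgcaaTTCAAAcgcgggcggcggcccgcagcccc
Mki67 (chr7:135716380-135716529, minus strand): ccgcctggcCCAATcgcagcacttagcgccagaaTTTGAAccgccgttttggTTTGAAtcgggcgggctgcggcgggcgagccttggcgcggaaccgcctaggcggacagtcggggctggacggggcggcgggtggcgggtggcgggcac
Birc5 (chr11:117849087-117849236, plus strand): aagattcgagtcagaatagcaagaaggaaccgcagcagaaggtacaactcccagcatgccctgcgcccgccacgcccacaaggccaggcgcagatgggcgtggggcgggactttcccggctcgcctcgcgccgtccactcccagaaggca
Mcm6 (chr1:128359706-128359855, minus strand): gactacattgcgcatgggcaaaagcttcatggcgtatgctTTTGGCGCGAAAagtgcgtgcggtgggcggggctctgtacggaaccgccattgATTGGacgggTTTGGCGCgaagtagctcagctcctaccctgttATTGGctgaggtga
Pcna (chr2:132253181-132253330, minus strand): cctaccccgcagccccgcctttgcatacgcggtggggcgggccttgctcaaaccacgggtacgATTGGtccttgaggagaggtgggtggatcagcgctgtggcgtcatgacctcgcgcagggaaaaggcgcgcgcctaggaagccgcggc
Pclaf (chr9:65890173-65890322, plus strand): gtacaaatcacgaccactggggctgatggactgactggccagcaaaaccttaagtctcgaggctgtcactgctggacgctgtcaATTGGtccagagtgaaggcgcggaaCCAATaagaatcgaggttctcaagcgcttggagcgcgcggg

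In Ube2c the letters of 2 CCAAT boxes begin 88 and 57 bases before the RefSeq start and those of 1 CHR 29 bases before it. In GENCODE M21 the genes Ube2c, Pclaf and Pcna start inside the windows shown, at chr2:164769898, chr9:65890237 and chr2:132253314. Some marked letters therefore lie within these genes by that annotation. Mki67 held 2 CHR matches, Mcm6 held 3 E2F matches of which 2 overlap, and Birc5 held none of these letters in the window shown. Over the full 250 bases before the start, CCAAT letters were present in 18 of 22 G2/M windows (81.8%) and 10 of 13 S windows (76.9%), against 33.8% of the 32851 windows of all genes. CHR letters were present in 7 of 22 G2/M windows (31.8%), 2 of 13 S windows (15.4%) and 17.1% of all windows. E2F letters were present in 1 of 22 G2/M windows (4.55%), 3 of 13 S windows (23.1%) and 1.53% of all windows. These are matches of letters only, and base composition was not matched between the sets.

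After filtering, 26853 cells remained, 4953 to 8080 per library, with a median of 9948 to 12103 UMIs (distinct transcript molecules) per barcode kept by the filters. Cells were clustered without cell cycle genes, and clusters were named from marker genes with the ending "-like". Foxp3 T-like cells were 1 cluster of 800 cells (123 and 156 in the controls, 368 and 153 with Reg1-MO), which held Foxp3 at a mean of 310.3 CPM (counts scaled to the summed UMIs of the class) against 1.41 in other T-like cells. Microglia-like cells held P2ry12 and Tmem119 at 270.1 and 273.0 CPM against 19.9 and 18.7 in macrophage-like cells. Progenitor-like cells carried the granule genes Elane and Mpo at 5060 and 2694 CPM, but Kit, a stem cell marker, at 12.7 CPM, and also the monocyte gene Ly6c2 at 2052 CPM. Between 10 and 78 cell barcodes were shared by any 2 libraries, at most 0.945% of the smaller. Zc3h12a, over all cells, was at 57.5 and 69.9 CPM in the controls and 58.4 and 67.5 with Reg1-MO. An mRNA level does not check an agent that may act on translation.

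Some libraries stood apart within the microglia-like class. Ctrl 2 gave 18 of the 1427 cells of the cluster with the deepest cells (cluster 8, median 58684 UMIs), and Reg1-MO 2 gave 595 of the 624 cells of another (cluster 31). The median depth of a microglia-like cell was 42804 and 16680 UMIs in the controls and 42060 and 17055 with Reg1-MO. The fold changes of members in microglia-like cells are therefore also given without these clusters and with single libraries left out. Scoring shares and comparisons with macrophage-like cells were not recomputed without these clusters.

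The classes differed widely in how much of the cycle programme they carried. Summed over the 25 G2/M members, progenitor-like cells held 4460 and 3586 CPM in the controls and 4624 and 4833 with Reg1-MO. Macrophage-like cells held 119 and 121 CPM in the controls and 118 and 105 with Reg1-MO. Neutrophil-like cells held 147, 122, 183 and 106 CPM in the same order. Within them cluster 6, led by the granule genes Ltf, Ngp and Camp, held 296, 231, 460 and 177 CPM, and the clusters 5, 15, 18 and 29 held 47.4 to 68.0 CPM over the libraries together. Among macrophage-like cells, cluster 9 held 324 and 247 CPM in the controls and 589 and 391 with Reg1-MO, and clusters 1, 2 and 3 held 90.3 to 109.7 CPM over the libraries together. Foxp3 T-like, other T-like and microglia-like cells lay between these levels.

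To count cycling cells at equal depth, each cell was thinned to 3000 UMIs, and a cell scored when at least 3 of them came from G2/M members. The scoring share is a range of a continuous count, not a cell type. Of 742 Foxp3 T-like cells deep enough, 85 scored, 32 of them at exactly 3 UMIs, and 92 cells lay 1 UMI short. In neutrophil-like cells 1.43% and 1.41% scored in the controls and 2.22% and 0.871% with Reg1-MO, at median depths of 4070 to 5536 UMIs. Every progenitor-like library was above 78% and every Foxp3 T-like library above 8%. Macrophage-like shares were 2.09% and 2.12% in the controls and 1.02% and 1.53% with Reg1-MO, without overlap. Neutrophil-like cells outside cluster 6, at median depths of 3642 to 4622 UMIs, serve as the reference for free RNA, a choice made after the levels of the clusters were seen. There, 1 of 1099 and 0 of 1281 cells scored in the controls (0 allows a share of up to 0.234%) and 3 of 236 and 1 of 609 with Reg1-MO. In cluster 6 the shares were 5.39% and 5.04% against 5% and 3.08%. Macrophage-like cells of cluster 9 scored at 7.87% and 5.80% in the controls and 6.98% and 8.77% with Reg1-MO. Those outside it scored at 0.845% and 0.771% against 0.826% and 0.752%. Cluster 9 held 376 and 400 cells in the controls and 86 and 118 with Reg1-MO. Without thinning, macrophage-like cells scored at 16.4% to 23.4% and neutrophil-like cells at 1.54% to 3.36%. With 2 libraries against 2 the smallest exact p-value is 0.33, so no share can pass a threshold of 0.05.

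**Figure D1:**
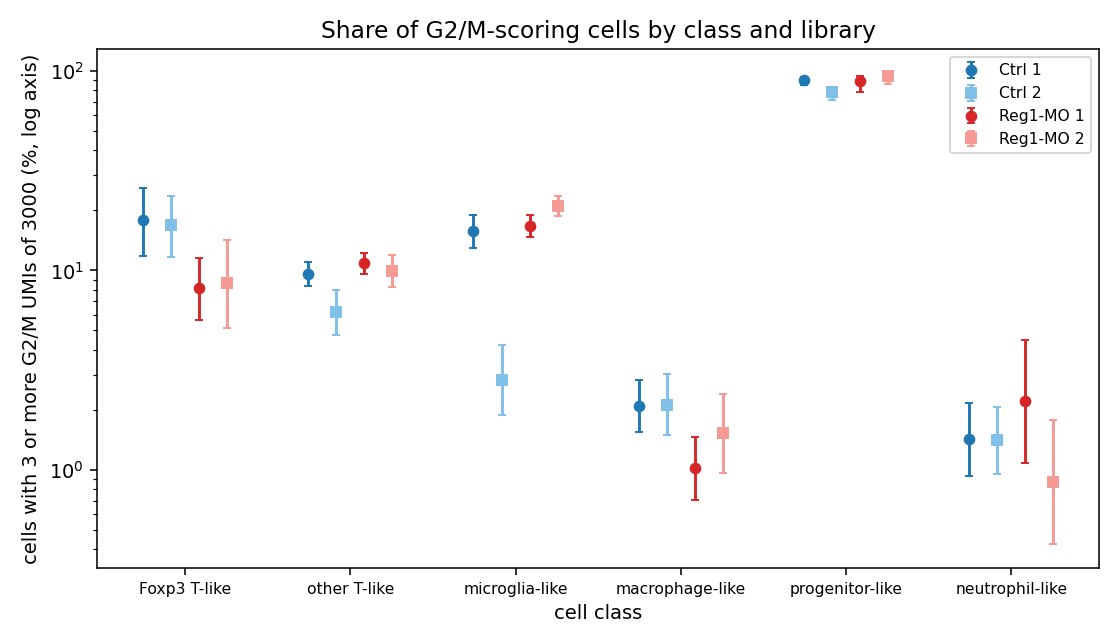
Share of cells with at least 3 G2/M-member UMIs after thinning to 3000 UMIs (%, log axis), by class and library. Bars are Wilson 95% intervals, which cover counting error only. In Foxp3 T-like cells both Reg1-MO libraries (8.13% and 8.67%) lie under both controls (17.9% and 16.9%), and in microglia-like cells Ctrl 2 (2.83%) stands under the other 3 libraries.

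In Foxp3 T-like cells the mitotic genes were lower with Reg1-MO. All 25 G2/M members were lower in both Reg1-MO libraries than in either control, and their median log2 fold change was -1.53. Ube2c, the ubiquitin-conjugating enzyme of the anaphase-promoting complex, was at 130 and 99.3 TMM-normalised CPM in the controls and 29.7 and 14.6 with Reg1-MO. It fell by 2.27 on the log2 scale (SE 0.29, adjusted p = 0.0331, edgeR quasi-likelihood test over 8744 genes). Tpx2, which activates Aurora A on the spindle, went from 57.0 and 43.2 to 12.2 and 13.1 CPM, which is -1.98 on the log2 scale (SE 0.27, edgeR adjusted p = 0.0434). Mki67, the coat of mitotic chromosomes behind the Ki-67 stain, went from 256.5 and 149.8 to 59.8 and 64.2 CPM, which is -1.71 on the log2 scale (SE 0.24, edgeR adjusted p = 0.0441). Stmn1, which destabilises microtubules, went from 262.7 and 246.7 to 110.1 and 115.9 CPM, which is -1.17 on the log2 scale (SE 0.14, edgeR adjusted p = 0.0331). In each of these 4 genes both Reg1-MO libraries lay under both controls, and for Mki67 the controls differed by more than the gap between the groups.

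These 4 were the members that passed the threshold of 0.05, all lower, against 0.0801% of all genes tested called lower, 0.0457% called higher and 0.126% called in either direction. In GENCODE M21 on GRCm38, Ube2c lies at chr2:164769898-164778822 (plus strand), Tpx2 at chr2:152847964-152895321 (plus), Mki67 at chr7:135689784-135716361 (minus) and Stmn1 at chr4:134468320-134473843 (plus). Of the 43 members, 41 had a log2 fold change below 0, with a median of -1.33, while the median of all genes tested was -0.01. Lower without overlap between groups were 37 of 43 members, against 21.5% of all genes tested. These 37 comprised all 25 G2/M members, 9 of 15 S members and all 3 of neither phase. The members were counted in the same cells of the same libraries, so they are not independent observations.

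Among the other G2/M members the values ran in the same direction with adjusted p-values of 0.0628 and above. The kinetochore gene Cenpf was at 102.4 and 66.5 CPM in the controls and 24.1 and 6.56 with Reg1-MO, and Cit, a kinase of the cleavage furrow, at 52.5 and 24.8 against 10.1 and 2.92. Cdk1, the mitotic kinase, was at 68.6 and 29.6 against 13.3 and 10.2 CPM, and its cyclin partner Ccnb1 at 22.3 and 22.4 against 8.04 and 8.75. Birc5, a subunit of the chromosomal passenger complex, was at 108.6 and 79.3 against 38.1 and 35.7 CPM. Top2a, which untangles DNA, was at 268.9 and 193.8 against 115.0 and 75.1 CPM. Cenpa, the histone variant of centromeres, had the smallest difference of the G2/M members, 196.8 and 210.6 against 130 and 159.7 CPM, a log2 fold change of -0.50.

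The S members differed less between groups. Their median log2 fold change was -0.46, and 0 were called. Pcna, at 118.4 and 80.9 CPM in the controls and 88.4 and 86.8 with Reg1-MO, overlapped between groups. Mcm3 was at 67.7 and 37.6 against 47.5 and 59.8 CPM, and Mcm4 at 37.4 and 44.8 against 41.6 and 45.9, the only members with log2 fold changes above 0 (0.02 and 0.08). Mcm6, a helicase subunit, was at 128.2 and 125.7 against 112.9 and 97.7 CPM. Hist1h2ap stood apart from the other S members, at 49.0 and 38.4 against 10.5 and 2.92 CPM, -2.49 on the log2 scale (SE 0.41, edgeR adjusted p = 0.0628). Without it, the S members ranged from -0.66 (Tk1) to 0.08 (Mcm4). Whether G2/M and S members differ in their response was not tested as such.

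**Figure D2:**
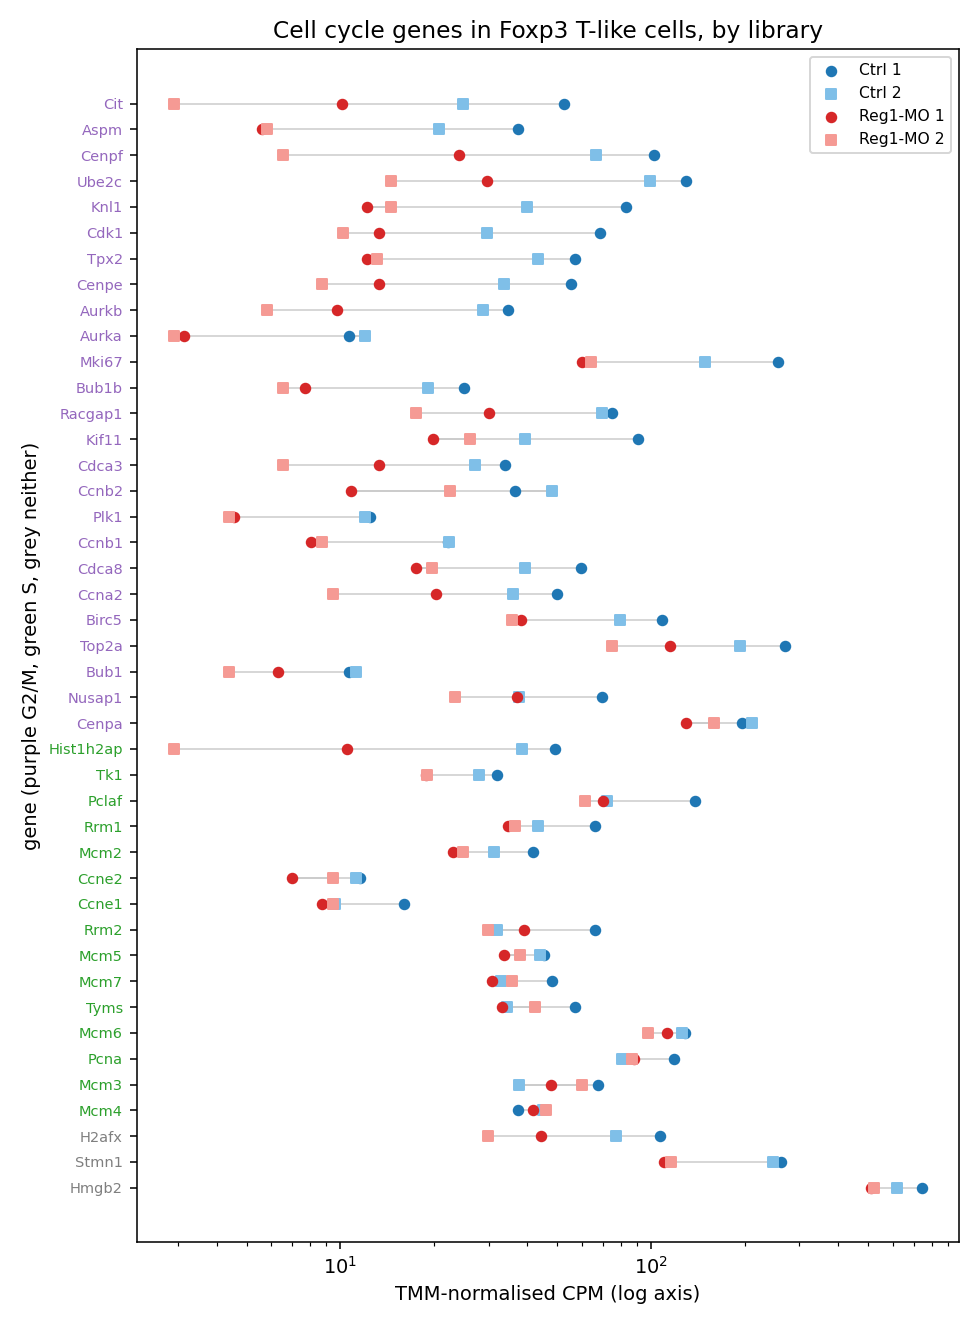
TMM-normalised CPM (log axis) of the 43 members in Foxp3 T-like cells, 1 row per gene and 1 point per library, sorted by log2 fold change within phase. In the G2/M rows (purple names) both Reg1-MO points lie left of both control points for all 25 genes, whereas the control and Reg1-MO points of Mcm3, Mcm4, Mcm7, Pcna, Tyms and Rrm2 overlap.

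The summed level does not say whether fewer cells cycled or each carried less of these transcripts. The thinned shares cannot separate these readings, because a cell with fewer of these transcripts can also drop under the cut of 3 UMIs. The thinned shares were 17.9% and 16.9% in the controls and 8.13% and 8.67% with Reg1-MO, with no overlap. Their means differed by 8.97 percentage points (exact permutation p = 0.33, 2-sided). Wilson intervals for the 4 libraries were 11.9% to 26%, 11.7% to 23.7%, 5.65% to 11.6% and 5.13% to 14.3%. Cells that scored numbered 20 and 25 in the controls and 27 and 13 with Reg1-MO. They held a median of 5.5 and 12 G2/M UMIs in the controls and 3 and 4 with Reg1-MO, the last 2 at or just above the limit of 3. Without thinning, the shares were 35.8% and 37.8% against 26.4% and 36.6%. For S members, the thinned share was 13.4% and 17.6% against 9.64% and 10.7%.

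The number of called genes rested on few cells, 1125975 to 2951117 UMIs per library, and on each Reg1-MO library. The member calls were lost when either Reg1-MO library was left out. The median log2 fold change was then -1.31 (Reg1-MO 1 out) and -1.17 (Reg1-MO 2 out), with 41 and 42 members below 0. With doublets kept, or with cells chosen by at least 1 Foxp3 UMI instead of by cluster, edgeR also called 0 members. At an unadjusted p under 0.05 there were 29 and 35 members, against 988 of 8952 and 914 of 8512 genes. In these 2 settings 41 and 43 members were below 0. DESeq2 called 14 members, all lower, on all 4 libraries, against 0.492% of all genes called and 0.366% called lower. Migratory dendritic markers, 6 genes, summed to 106 and 75.2 CPM in the controls and 45.7 and 32.3 with Reg1-MO in this class. Most of this sum was Ccr7, at a mean of 59.3 CPM, while the other markers of the list were at 0 to 2.80 CPM. The part of these markers in the result was not tested. The T cell and Foxp3 T marker lists summed to 3400 and 4142 against 4391 and 4263 CPM, and to 8909 and 9108 against 9401 and 9516 CPM.

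Other T-like cells, 901 to 2170 per library in 8 clusters, had estimates of the opposite sign for most members. Of 43 members, 40 had a log2 fold change above 0 with a median of 0.25 (0.00 for all genes tested), and edgeR called 0 members, as it called 0 of 12100 genes (percent called 0). At an unadjusted p under 0.05 there were 4 members and 1293 genes, and DESeq2 called 0 members and 69 genes. Without overlap, 7 members were higher and 0 lower, against 22.6% and 23.3% of all genes tested. Stmn1 was at 211.8 and 105.9 CPM in the controls and 270.3 and 191.8 with Reg1-MO, and Top2a at 161.8 and 96.4 against 199.4 and 147.4, so the groups overlapped. Hmgb2, a chromatin protein abundant in cycling cells, was at 716.3 and 622.0 against 858.6 and 772.6 CPM, higher without overlap (adjusted p = 0.461 by edgeR). Cenpa was at 112.8 and 87.4 against 104.6 and 120.8 CPM. Ctrl 2 was the lowest library for 40 of 43 members. Without Ctrl 2 the median was -0.05, and without Ctrl 1 it was 0.69 with 6 members called higher, against 0.865% of all genes called higher. Without clusters 12 and 25, those of this class with the highest cell cycle levels, the median was 0.12, 28 of 43 members were above 0, Ctrl 2 was the lowest library for 20, and 0 members were called by edgeR (5 at an unadjusted p under 0.05, DESeq2 not run). Scoring shares were 9.61% and 6.18% in the controls and 10.9% and 9.96% with Reg1-MO, and 25.3%, 20.1%, 24.7% and 26.6% without thinning.

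The difference between these T cell classes was tested itself, as the interaction of treatment and class with library as a block, over 11465 genes by edgeR. Of 43 members, 25 were called, all with a lower treatment effect in Foxp3 T-like cells, against 0.558% of all genes called in that direction and 0.715% in either. All 43 estimates were below 0, with a median of -1.53. The difference was -2.44 for Ube2c (SE 0.23, adjusted p = 0.000453, edgeR), -1.69 for Top2a (SE 0.16, adjusted p = 0.000453) and -1.92 for Mki67 (SE 0.20, adjusted p = 0.000644). Cit (-2.81, SE 0.33), Cenpf (-2.55, SE 0.30), Knl1 (-2.51, SE 0.30), Cdk1 (-2.37, SE 0.29) and Cenpe (-2.25, SE 0.27) each had an adjusted p of 0.00144 by edgeR. The 25 called members were 19 of the 25 G2/M members, 3 S members (Hist1h2ap, Pclaf and Rrm2) and all 3 of neither phase. The 6 uncalled G2/M members were Ccnb1, Ccnb2, Plk1, Bub1, Nusap1 and Cenpa, and no MCM gene was called. With the per-cell marker gate 11 were called, against 0.255% of all genes, and with doublets kept 19, against 0.412%. With no low-count filter 31 were called, against 1.46% of all genes. Medians were -1.78 to -1.32 under the 8 alternatives tried.

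**Figure D3:**
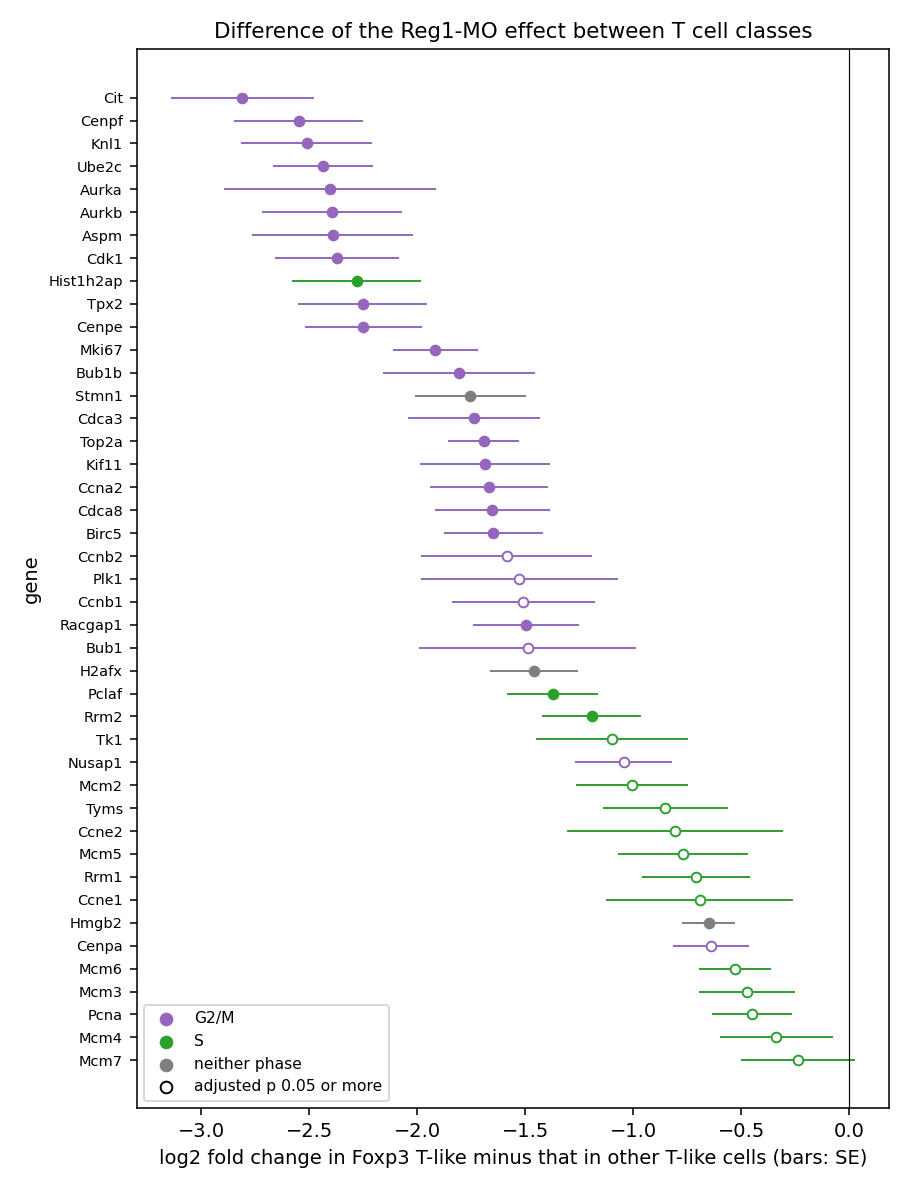
Log2 fold change (Reg1-MO over Ctrl) in Foxp3 T-like cells minus that in other T-like cells for each of the 43 members, with its SE from edgeR. Filled points passed an adjusted p of 0.05. All 43 points lie below 0, from -2.81 (Cit) to -0.24 (Mcm7).

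Averaged over the 4 libraries, few members differed in level between the T cell classes. The average mixes groups in which the order of the classes was reversed. In the controls the G2/M sum was 1942 and 1393 CPM in Foxp3 T-like against 1195 and 732 in other T-like cells. With Reg1-MO it was 632 and 561 against 1277 and 1019 CPM. The level within 1 group was not tested. Against other T-like cells, Foxp3 T-like cells held more Cenpa (log2 difference 0.59, adjusted p = 0.00696) and less Hmgb2 (-0.42, adjusted p = 0.0235) and H2afx (-0.79, adjusted p = 0.0345) by edgeR with library as a block. These 3 of 43 members compare with 28.7% of all genes called, 15.7% higher and 13.1% lower. Stmn1 differed by -0.23 (adjusted p = 0.637). The median log2 difference was -0.33 on all 4 libraries, -0.16 with Reg1-MO 2 left out and -0.50 without Ctrl 2.

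In microglia-like cells the cycle genes were higher with Reg1-MO on average, but the controls differed as much as the groups. Of 43 members, 42 had a log2 fold change above 0 with a median of 1.15, against 0.01 for all genes tested. No member was called by edgeR, as 0 of 13916 genes were (percent called 0), with 7 members and 1117 genes at an unadjusted p under 0.05. DESeq2 called 0 members and 182 genes. Higher without overlap were 27 of 43 members, against 21.4% of all genes tested: 14 of 15 S members, 11 of 25 G2/M members and 2 of 3 of neither phase. Ctrl 2 was the lowest library for 42 members and Reg1-MO 2 the highest for 41.

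Top2a was at 51.6 and 17.2 CPM in the controls and 60.1 and 136.4 with Reg1-MO, 1.51 on the log2 scale (SE 0.63, edgeR adjusted p = 0.613). Stmn1 was at 128.0 and 42.0 against 141.6 and 253.3 CPM, 1.21 on the log2 scale (SE 0.58, edgeR adjusted p = 0.619). In both genes Ctrl 1 lay closer to Reg1-MO 1 than to Ctrl 2. Pcna was at 66.0 and 50.1 against 78.0 and 77.2 CPM (log2 fold change 0.42), and Hmgb2 at 308.6 and 219.2 against 233.3 and 363.8 (0.18, overlapping). Mcm3, the member with the smallest p-value, was at 31.8 and 20.1 against 43.8 and 55.4 CPM, 0.93 on the log2 scale (SE 0.28, edgeR adjusted p = 0.595). Mki67 was at 44.6 and 21.2 against 37.4 and 87.9 CPM, so the groups overlapped. Whether S and G2/M members differ in this respect was not tested. The G2/M sum was 504 and 177 CPM in the controls and 498 and 1108 with Reg1-MO, and the S sum 291 and 147 against 355 and 510.

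**Figure D4:**
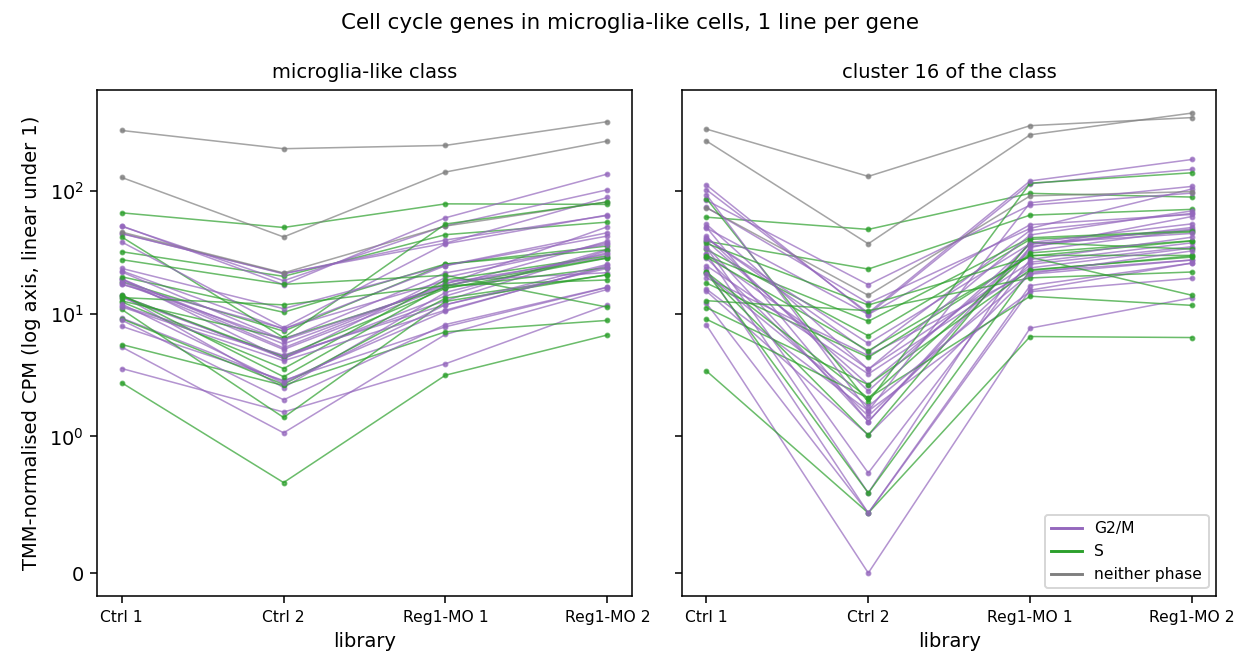
TMM-normalised CPM (log axis, linear under 1) of the members in all microglia-like cells (left) and in cluster 16 of that class alone (right), with 1 line joining the 4 libraries of each gene and no order implied. Ctrl 2 is the lowest library for 42 of 43 genes on the left and for all 43 on the right.

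Left-out libraries changed the size but not the sign of the median: it was 0.60 without Ctrl 2, 2.22 without Ctrl 1, 1.57 without Reg1-MO 1 and 0.63 without Reg1-MO 2. It was 1.23 without cluster 31 and 1.13 without cluster 8. In cluster 16 alone, which held 170 and 497 cells from the controls and 356 and 207 from Reg1-MO, the median was 1.16, 0 members were called and 27 were higher without overlap, against 26.5% of all genes tested there. There the G2/M sum was 1101 and 101 CPM in the controls and 977 and 1479 with Reg1-MO. Cluster 27, with 48 and 283 control cells and 31 and 44 Reg1-MO cells, had 26 members that could be tested. Over these the median was 0.86 and edgeR called 0 (3 at an unadjusted p under 0.05, DESeq2 not run), while 2 were higher without overlap and 1 lower, against 20.3% and 20.7% of all genes. Reg1-MO 1 was its lowest library for 18 of the 26 and Reg1-MO 2 its highest for 25. Its G2/M sum was 243 and 215 CPM in the controls and 149 and 847 with Reg1-MO. Scoring shares of microglia-like cells were 15.7% and 2.83% in the controls and 16.8% and 21.0% with Reg1-MO, a difference of 9.63 points (exact permutation p = 0.33), which was 3.17 points without Ctrl 2. Unthinned shares were 67.7%, 27.4%, 67.0% and 39.6%. The 10 neutrophil markers summed to 15971 and 20167 CPM in the controls against 2278 and 8678 with Reg1-MO in this class. The 12 macrophage markers summed to 14061 and 14756 against 11615 and 5478 CPM, and the 10 microglia markers to 3902 and 4814 against 5459 and 9683. Their part in the result was not tested.

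Microglia-like cells held more of the cycle genes than macrophage-like cells in all libraries together. With library as a block, 34 of 43 members were called higher in microglia-like cells, against 23.5% of all genes called higher, 20.2% called lower and 43.7% called in either direction, with a median log2 difference of 2.30. The 8 with the smallest p-values were Cenpf (3.29), Plk1 (3.15), Hist1h2ap (2.77), Kif11 (2.71), Tk1 (2.45), Nusap1 (2.74), Rrm2 (2.84) and Cdk1 (2.55), with adjusted p-values of 0.00159 to 0.00342 by edgeR. The call depended on how the classes were drawn. With the per-cell marker gate, 0 members were higher and 1 lower, against 22.3% and 19.8% of all genes, and the median was 0.35. That gate put 182 progenitor-like and 177 microglia-like cells into the macrophage class. The difference of the treatment effect between microglia-like and macrophage-like cells had a median of 1.27, with all 43 members above 0. By edgeR 0 of them passed (percent called 0 over 14302 genes), with 17 members and 1082 genes at an unadjusted p under 0.05, and DESeq2 was not run on this contrast. Adjusted p-values were 0.655 for Stmn1 (2.10) and Pcna (0.54), 0.681 for Top2a (1.27) and 0.752 for Hmgb2 (0.46). Without Reg1-MO 1 the median was 2.01.

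Macrophage-like cells, 1194 to 2807 per library, had estimates on both sides of 0. The median log2 fold change was -0.09, and edgeR called 0 members, as 0 of 13328 genes (percent called 0). At an unadjusted p under 0.05 there were 7 members and 2365 genes, and DESeq2 called 1 member and 550 genes. Without overlap, 8 members were higher and 10 lower, against 28.3% and 29.5% of all genes tested. Hmgb2 was at 199.9 and 237.7 CPM in the controls and 178.4 and 180.4 with Reg1-MO, Stmn1 at 20.9 and 34.3 against 17.1 and 14.9, and Pcna at 53.1 and 52.4 against 53.5 and 45.7. Cenpa was at 20.4 and 25.1 against 19.4 and 26.9 CPM. The first 2 were lower without overlap and the last 2 overlapped, and their adjusted p-values were 0.252 to 0.966. Without Ctrl 1, 2 members were called lower, against 14.2% of all genes called and 6.09% called lower.

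Progenitor-like cells, the class with the highest levels, had few called members. They numbered 251 and 208 in the controls and 55 and 71 with Reg1-MO. The median log2 fold change was 0.09, and 2 of 43 members were called, 1 higher and 1 lower, against 8.31% of all genes tested, 4.48% higher and 3.83% lower. Without overlap, 11 members were higher and 4 lower, against 25.9% and 27% of all genes. Ccna2, cyclin A, was at 163.7 and 127.6 CPM in the controls and 205.5 and 227.8 with Reg1-MO, 0.57 on the log2 scale (SE 0.13, edgeR adjusted p = 0.0308). Hist1h2ap was at 301.6 and 389.5 against 127.4 and 77.5 CPM, -1.77 on the log2 scale (SE 0.21, edgeR adjusted p = 0.00176). Both genes separated the groups without overlap. Hmgb2 was at 2920 and 2306 against 2916 and 2886 CPM and Stmn1 at 1116 and 1007 against 959.2 and 1059, and both overlapped. G2/M members had a median of 0.17 and S members of -0.11.

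The class held 2 clusters in different proportions, since 89 and 69 control cells but 7 and 9 Reg1-MO cells belonged to the smaller, Elane-rich cluster. Within the larger cluster alone, Ccna2 was not called (log2 fold change 0.37, adjusted p = 0.224 by edgeR) and Hist1h2ap was (-1.87, adjusted p = 0.0115). The 10 progenitor markers summed to 19351 and 18013 CPM in the controls and 9847 and 12297 with Reg1-MO, and the 10 neutrophil markers to 30198 and 24464 against 18889 and 15434. Their part in the result was not tested. Without Reg1-MO 1 and without Reg1-MO 2, 1 member was called, against 4.33% and 5.27% of all genes. Without Ctrl 1, 5 members were called, against 7.37%. Scoring shares were 90.0% and 78.2% against 89.1% and 94.4%, overlapping, and 98.1% to 100% without thinning.

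Hist1h2ap, at chr13:21833026-21833507 (minus strand), encodes a core histone whose normal mRNA ends without a poly(A) tail. Its estimate was below 0 in all 5 classes: -2.49 in Foxp3 T-like, -1.77 in progenitor-like, -1.89 in macrophage-like, -0.49 in microglia-like and -0.35 in other T-like cells. Of these estimates edgeR called the progenitor-like one only (adjusted p = 0.00176). The groups overlapped in microglia-like and other T-like cells. In microglia-like cells the 14 other S members ranged from 0.42 to 1.57, so this gene was the single member below 0 there. Reads of near-identical histone copies may be hard to assign to a single gene, so its level is uncertain. The comparisons share libraries across classes.

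**Figure D5:**
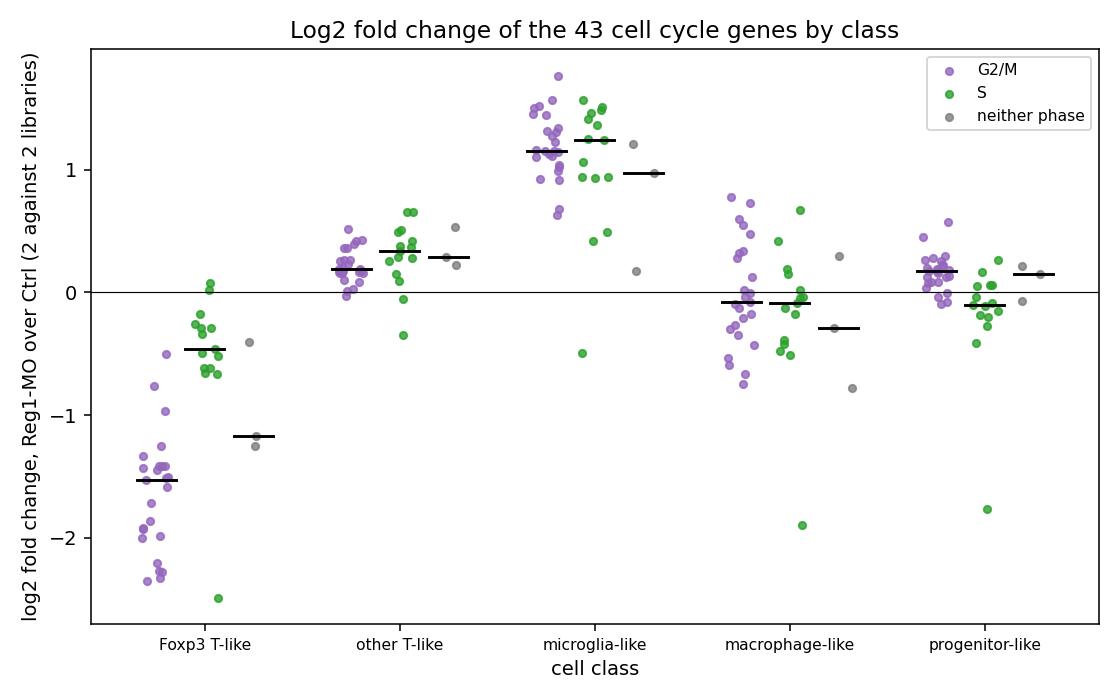
Log2 fold change, Reg1-MO over Ctrl, of each of the 43 members in the 5 classes, by phase, with black bars at the medians. The G2/M medians are -1.53 in Foxp3 T-like and 1.15 in microglia-like cells, and the lowest S point in each class is Hist1h2ap.

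The makeup of the scoring cells differed between groups. Microglia-like cells made up 11.4% and 4.04% of all scoring cells in the controls and 33.6% and 43% with Reg1-MO. Progenitor-like cells made up 28.2% and 29.6% against 8.03% and 13.3%. Cells of the 3 unnamed clusters, of which 75.7% and 75.4% scored in the controls and 26.1% and 51.9% with Reg1-MO, made up 24.7% and 36.6% against 5.90% and 11.1%. None of these 3 pairs of ranges overlapped. Other T-like cells made up 22.5% and 9.74% against 36.9% and 19.4%, and Foxp3 T-like cells 2.52% and 4.6% against 4.43% and 2.57%, both overlapping. These shares also follow the number of cells of each class: microglia-like cells were 7.87% and 12.8% of all cells in the controls and 15.4% and 21.1% with Reg1-MO, and progenitor-like cells 3.33% and 3.32% against 0.681% and 1.43%.

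Of the lists of other cycle genes outside the 43, the other G2/M and the other S phase genes had medians of the same sign as the members in Foxp3 T-like and microglia-like cells. In Foxp3 T-like cells, 48 of 60 other G2/M genes were tested, 0 were called and 42 were lower without overlap, with a median of -1.16. Of 24 other S phase genes, 21 were tested, 0 were called and 10 were lower without overlap, with a median of -0.29. Of all genes tested there, 0.126% were called and 21.5% were lower without overlap. The cyclins, kinases and pocket proteins of G1 (9 tested, median -0.11), the CDK inhibitors and p53 targets (10 tested, median 0.04) and the transcription factors of the cycle (9 tested, median -0.22) had 0 calls. In microglia-like cells 58 of 60 other G2/M genes and all 24 other S phase genes had log2 fold changes above 0, with medians of 1.19 and 0.94 and 0 calls. Among the 5 classes, edgeR called genes of these lists in progenitor-like cells only, 6 of 118 tested, 3 higher and 3 lower, against 8.31% of all genes. There Myb, a transcription factor of immature blood cells, fell from 117.4 and 120.6 to 49.7 and 67.1 CPM (-1.01, adjusted p = 0.00321 by edgeR), and Cdk6, a G1 kinase, from 315.1 and 372.7 to 209.1 and 187.2 CPM (-0.80, adjusted p = 0.00521 by edgeR). Cdkn1a, which encodes the CDK inhibitor p21, rose from 145.1 and 117.5 to 196.9 and 220.2 CPM (0.67, adjusted p = 0.0137 by edgeR). Mybl2, which encodes B-Myb, fell from 42.7 and 37.7 to 26.4 and 22.9 CPM (-0.72, adjusted p = 0.0279 by edgeR). The other 2 calls were the G2/M genes Kif20a, a kinesin of cytokinesis (0.60, adjusted p = 0.0322 by edgeR), and Tuba1b, an alpha-tubulin (0.43, adjusted p = 0.0384). In the larger progenitor-like cluster alone, none of the 6 was called, with log2 fold changes of -0.66 for Myb, -0.54 for Cdk6, -0.39 for Mybl2, 0.26 for Cdkn1a, 0.39 for Kif20a and 0.26 for Tuba1b and adjusted p-values of 0.117 to 0.448 by edgeR.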

How the data were processed

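The deposited matrices list whole UMI counts for every gene in every cell barcode, written by the authors' Cell Ranger 5.0.1 run, per the file headers. The submitters' processing notes name the mm10 build and Seurat 4.0, without a role for Seurat. The libraries were 10x 3' libraries, per the labels' protocols. Totals were 75472324 to 174552218 UMIs per library. The annotation release is not given here.

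Barcodes under 500 UMIs, under 200 genes or above 10% mitochondrial UMIs were dropped. Barcodes with the highest Scrublet scores were removed as doublets, 0.8% per 1000 barcodes. Counts scaled to 10000 per cell were log-transformed, reduced to 3000 variable genes and 40 components without cell cycle, mitochondrial, ribosomal and receptor genes, and clustered by Leiden on 15 neighbours at resolution 1 (scanpy 1.11.5, igraph 0.11.9, Python 3.11.15, seed 0). Of 34 clusters, 31 were named from marker lists and 3 (1009 cells) stayed unnamed. The score limits used for naming were chosen with the clusters in view, and fits or shares without single clusters were added after seeing the data.

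UMIs were summed per library and class. Genes passing filterByExpr (minimum count 10) were scaled by TMM, and edgeR 4.0.16 (with limma 3.58.1, in R 4.3.3) gave quasi-likelihood tests, with Benjamini-Hochberg adjustment over all genes tested and a threshold of 0.05. DESeq2 1.42.0 was an alternative. CPM of single members are TMM-normalised, while sums, marker levels and Zc3h12a are plain CPM. Wilson intervals are at 95%. Full values are given for called members, at most 8 by smallest p, and for the members with the highest mean CPM up to 4 where fewer were called. Other members are examples chosen after their values were seen. Pathway genes were to be named by smallest p, at most 4 per class, but all that were called in progenitor-like cells are named. The members and lists were chosen with earlier results of these data known. On simulated counts for the same genes, the test recovered 51% of 2-fold and 93% of 4-fold changes in Foxp3 T-like cells (8744 genes), and 25% and 79% in microglia-like cells (13916 genes). Promoter sequences are from RefSeq (GRCm38.p6), and gene positions from GENCODE M21.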

Additional observations from a re-analysis of the deposited data

Results flagged for a closer look

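The response to Reg1-MO differed between Foxp3 T-like and other T-like cells by its own interaction test, for 25 of the 43 members. All 25 had a lower effect in Foxp3 T-like cells, against 0.558% of all genes called in that direction and 0.715% in either. The estimates of the 8 with the smallest p-values, as log2 fold change in Foxp3 T-like cells minus that in other T-like cells, were -2.44 (Ube2c), -1.69 (Top2a), -1.92 (Mki67), -2.55 (Cenpf), -2.81 (Cit), -2.25 (Cenpe), -2.51 (Knl1) and -2.37 (Cdk1). No group held 4 libraries, so single libraries were not screened as outliers.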

How the results depend on the processing

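The direction of the Foxp3 T-like result held under the 10 alternatives tried, with medians of -1.46 to -1.09, but the number of called members did not. It was 14 with DESeq2, 24 with no low-count filter (2.3% of all genes), 0 with no doublet removal, 0 with the marker gate and 0 to 21 when 1 library was left out. The 4 called members each passed in 6 of the 10 alternatives. With 1 library left out, edgeR takes the lone library to vary like the other group.

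With no low-count filter, 6 members were called in other T-like cells (2.77% of all genes), 36 in microglia-like (3.91%), 3 in macrophage-like (9.57%) and 4 in progenitor-like cells (8.99%). The same setting gave 17 (0.865% of all genes) for the difference of treatment effects between microglia-like and macrophage-like cells. It gave 20 (18.4% of all genes) for the level of Foxp3 T-like over other T-like cells. DESeq2 called 1 member in macrophage-like cells, against 4.13% of all genes. The marker gate gave 1 called member in progenitor-like cells (2.73% of all genes) and 11 for the difference of effects between the T classes (0.255%). It gave 1 for the level of microglia-like over macrophage-like cells (42% of all genes). The larger progenitor-like cluster alone gave 1 (0.709% of all genes).

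Leaving out 1 library gave 0 to 6 called members in other T-like, 0 to 2 in macrophage-like and 1 to 5 in progenitor-like cells. It gave 0 to 3 and 22 to 42 for the effect and the level of microglia-like against macrophage-like cells, and 12 to 28 and 1 to 10 for those of Foxp3 T-like against other T-like cells. The share of all genes called also changed with the library left out. These counts alone therefore do not show how the members compare with all genes. Medians with 1 library left out ranged from -0.052 to 0.69 in other T-like, -0.28 to 0.032 in macrophage-like and -0.016 to 0.22 in progenitor-like cells. They ranged from -0.53 to 0.14 for the level of Foxp3 T-like over other T-like cells.

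Under the marker gate, medians were -0.037 in other T-like cells, -0.18 in progenitor-like cells and 0.23 for the T class level, each opposite in sign to the value reported, and the larger progenitor-like cluster alone gave -0.0043. Scoring by S members gave a difference of 0.0862 percentage points in macrophage-like and -2.14 in progenitor-like cells, and the gate gave -6.09 in progenitor-like cells. With the gate, the microglia-like level over macrophage-like cells was -0.12 for Kif11, -0.097 for Nusap1 and -0.074 for Rrm2, and the T class level was 0.32 for Stmn1. Hmgb2 was -0.035 in microglia-like cells without doublet removal and -0.14 in progenitor-like cells with the gate. Cenpa in macrophage-like cells was -0.061 without doublet removal and -0.064 with the gate. With 1 library left out, Hmgb2 ranged from -0.16 to 0.46 in microglia-like and from -0.016 to 0.32 in progenitor-like cells. Cenpa then ranged from -0.23 to 0.24 in macrophage-like and from -0.0063 to 0.37 in other T-like cells, Pcna from -0.21 to 0.022 in macrophage-like cells, and Stmn1 from -0.65 to 0.18 for the T class level. The cause was not tested for any of these.

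Same-numbered libraries share only a number in the labels, and their deviations correlated at -0.0478 to 0.341 by class. With the replicate block, 22 members were called in Foxp3 T-like cells, all lower, against 1.45% of all genes called. In other T-like, microglia-like and macrophage-like cells 0 members were called. In progenitor-like cells 2 members were called higher and 1 lower, against 7.95% of all genes called. The crossed pairing was not run, because no correlation fell under -0.1.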
